A study of Mus musculus with 30 samples.

Results

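The 8 genes described here, Col11a1, Ldlrad3, Arpin, Frmd5, Rnd3, Slc4a10, Gpr12 and Ankrd34b, are 8 of the 51752 genes counted in a mouse series on interleukin-34 (IL-34). They were selected on their measured levels in CD11b isolates: Col11a1, Ldlrad3, Arpin, Frmd5 and Rnd3 for higher levels in isolates of Il34-deleted animals, Slc4a10 for higher levels in isolates of animals given an antibody against IL-34 and for an isolate difference between the antibody arms above the forebrain difference, and Frmd5, Gpr12 and Ankrd34b for an isolate difference between genotypes that was larger than the forebrain difference. The question was whether these genes lie in the isolates because of RNA from neurons or glia, and it was approached from the whole forebrain of the same animals.

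The 15 mice came from 2 experiments, and each gave 1 forebrain and 1 isolate library, 30 in all. In the genotype experiment, 4 animals were labelled IL34 Het, carrying 1 deleted Il34 allele, and 3 were labelled IL34 KO. In the antibody experiment, all animals were wild-type: 4 received a-gp120 (anti-gp120), the control antibody, and 4 received a-IL34 (anti-IL34). Males numbered 2 of 4 in the Het and anti-gp120 arms, 1 of 3 under KO and 3 of 4 under anti-IL34. Per the series description, mice were perfused with saline, 1 hemisphere gave the forebrain library, and the other went through magnetic beads against CD11b, a surface protein of microglia and other myeloid cells. Age, antibody dose and schedule are not given in the labels, the Het animals already lack 1 Il34 allele, and the 2 control arms therefore differ in genotype and treatment.

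IL-34, made largely by neurons in the forebrain, binds the receptor Csf1r, and many microglia need that signal to live. Bead isolation enriches cells that carry CD11b, and RNA of other brain cells can remain in the fraction. In such a fraction a gene's share of all reads depends both on its own transcript and on how much RNA the other cells contribute, and in bulk samples fewer cells of a type and less RNA per cell cannot be told apart.

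Libraries held 15064391 to 75158213 counted reads, and all 8 genes passed the filter on low counts in every comparison. Levels below are CPM, a gene's counts relative to the library total, scaled by TMM over all 30 libraries, fold changes come from edgeR fits within each comparison, and a gene was called at a Benjamini-Hochberg adjusted p under 0.05 over all genes tested. The targeted gene itself, Il34, was lower in KO forebrain (7.29 CPM ± 0.765, SD, n = 3) than in Het forebrain (20.8 ± 2.41, n = 4), while in isolates it stood at 6.37 ± 0.780 in KO and 7.78 ± 2.24 in Het animals, closer than the spread of the Het isolates. The isolates carried the label's cell type, since all 13 measured microglia markers were called higher in isolates than in forebrain of the control animals (median log2 fold change 5.45), where 40.8% of 18752 genes were. They also held neuron, astrocyte and oligodendrocyte markers throughout, and anti-gp120 isolates held far lower levels of choroid plexus markers than isolates of the genotype experiment, as given beside Slc4a10.

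Of the 8 genes, 4 lie on chromosome 2 (GENCODE M21, build GRCm38). Rnd3 spans 51130438 to 51149111 on the minus strand, Slc4a10 62046462 to 62326730 on the plus strand, Ldlrad3 101950203 to 102186385 on the minus strand and Frmd5 121545529 to 121807087 on the minus strand. Col11a1 lies on chromosome 3 (114030540 to 114220718, plus), Gpr12 on chromosome 5 (146582398 to 146585239, minus), Arpin on chromosome 7 (79925361 to 79935359, minus) and Ankrd34b on chromosome 13 (92425896 to 92441658, plus). The deposited gene length equals the gene span, introns included, so reads within introns may be counted, and genes inside a span may share its reads. Ldlrad3 holds Gm13919, Gm13920 and Gm13921 on the other strand, Frmd5 holds Gm14021 on its own strand and Gm14020 on the other, and C030017D09Rik overlaps the start of Ankrd34b on the other strand, so those 3 counts are less certain, strand use being not stated.

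The promoters of 3 genes are shown because they mark the ends of the range described below: Gpr12 was the most depleted of the 8 in isolates relative to forebrain, and Rnd3 and Ldlrad3 were nearest to equal levels. Each is the 250 bases before the RefSeq start (GRCm38.p6), written 5′ to 3′ on the gene's strand, with capitals at matches to any of 6 motifs searched on both strands. The windows are chr5:146585240-146585489 (minus) for Gpr12, chr2:51149112-51149361 (minus) for Rnd3 and chr2:102186461-102186710 (minus) for Ldlrad3.
Gpr12: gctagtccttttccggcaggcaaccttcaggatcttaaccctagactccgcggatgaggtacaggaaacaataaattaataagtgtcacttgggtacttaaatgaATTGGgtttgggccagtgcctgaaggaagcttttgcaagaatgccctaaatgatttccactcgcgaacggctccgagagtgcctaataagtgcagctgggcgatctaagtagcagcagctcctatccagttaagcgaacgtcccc
Rnd3: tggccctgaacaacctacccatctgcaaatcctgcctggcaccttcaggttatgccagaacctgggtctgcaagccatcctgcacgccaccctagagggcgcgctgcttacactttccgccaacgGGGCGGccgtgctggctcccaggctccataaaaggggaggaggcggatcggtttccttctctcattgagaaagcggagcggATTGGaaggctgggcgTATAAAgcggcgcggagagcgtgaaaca
Ldlrad3: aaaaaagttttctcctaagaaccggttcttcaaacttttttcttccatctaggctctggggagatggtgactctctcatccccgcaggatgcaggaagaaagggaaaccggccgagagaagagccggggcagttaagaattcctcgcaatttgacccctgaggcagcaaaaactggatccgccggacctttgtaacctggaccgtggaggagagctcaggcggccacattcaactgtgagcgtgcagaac
The Gpr12 capitals are a CCAAT box on the reverse strand, the Rnd3 capitals are a GC box, a reverse CCAAT box and a TATA box, and the Ldlrad3 window had no match. Over the 8 promoters, the GC box (GGGCGG) occurred in 5, the CCAAT box (CCAAT) in 4 and the TATA box (TATAAA) in 2, against 32.9%, 34.5% and 12.97% of 27025 RefSeq promoter windows of the same length. The PU.1 motif (GAGGAAGT), named for a myeloid transcription factor, the cyclic AMP response element (TGACGTCA) and the left arm of the RE1 element (TTCAGCACC) were in 0 of the 8, against 2.44%, 1.62% and 0.285% of all windows. None of the 6 motifs overlaps another in the printed windows, and a match is a description of letters only.

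In the forebrain, the tissue from which the isolates were made, none of the 8 genes differed between arms by the test. Their fitted KO minus Het differences lay between -0.04 (Ldlrad3 and Frmd5) and 0.16 (Gpr12) on the log2 scale, and their anti-IL34 minus anti-gp120 differences between -0.12 (Col11a1) and 0.28 (Ankrd34b). By edgeR, 0 of 8 were called higher in KO forebrain, where 0.00517% of 19343 genes were, and 0 of 8 in anti-IL34 forebrain, where 0.192% of 17143 were. At an unadjusted p under 0.05 the counts were 0 and 1, the 1 being Ankrd34b, near the 7.45% and 4.86% of all genes, and DESeq2 called 0 of 8 in either comparison. The 95% intervals of all 8 lay within -0.19 and 0.35 for the deletion and within -0.39 and 0.49 for the antibody. For 0 of 8 were all KO or all anti-IL34 forebrains above all their controls (background 1.08% of genes for KO and 0.7% for anti-IL34). The picks of Frmd5, Gpr12 and Ankrd34b had used the genotype forebrain libraries, and that of Slc4a10 the antibody forebrain libraries, so those forebrain values are less independent of the selection than the others.

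**Figure D1:**
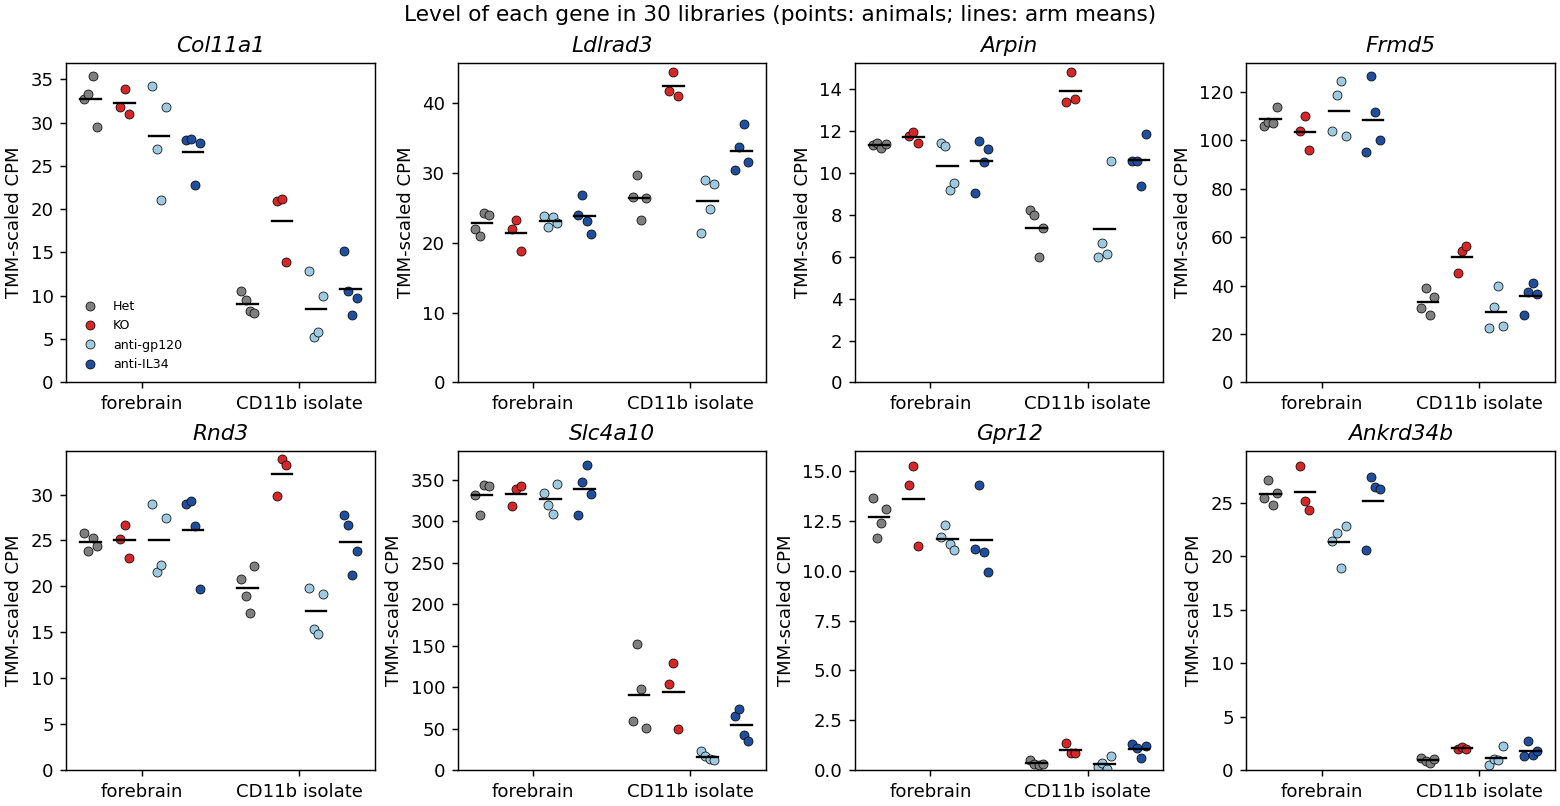
TMM-scaled CPM (y axes from 0, each gene on its own scale) of the 8 genes in forebrain and CD11b isolates. Points are animals coloured by arm and lines are arm means. For every gene KO forebrain overlaps Het forebrain and anti-IL34 forebrain overlaps anti-gp120 forebrain, while KO isolates stand apart from Het isolates for 7 genes, Slc4a10 being the exception.

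Gpr12 encodes an orphan receptor of the Gpr3 and Gpr6 group, which signals to Gs without a known bound ligand. In Het forebrain it stood at 13.7, 11.7, 12.4 and 13.1 CPM in animals 1, 20, 21 and 23, and in KO forebrain at 14.3, 15.3 and 11.3 in animals 3, 6 and 24. In Het isolates the same animals gave 0.485, 0.300, 0.254 and 0.279 CPM, and in KO isolates 1.36, 0.848 and 0.832. The isolate level was thus a small part of the forebrain level in each of these animals, and all KO isolates were above all Het isolates. In the antibody experiment forebrain held 11.7, 12.3, 11.3 and 11.1 CPM in anti-gp120 animals 1, 7, 8 and 15 and 11.1, 14.3, 11.0 and 9.92 in anti-IL34 animals 2, 10, 11 and 24. Isolates held 0.1297, 0.326, 0.0666 and 0.684 CPM under anti-gp120 and 1.32, 1.11, 0.604 and 1.19 under anti-IL34. These arms overlapped in isolates, since anti-gp120 animal 15 lay above anti-IL34 animal 11. Reads behind the isolate values were few, from 5 to 11 in Het, 18 to 54 in KO, 1 to 23 in anti-gp120 and 19 to 45 in anti-IL34 libraries. The fitted isolate differences, given as a description because they chose the gene, were 1.70 (SE 0.32) for KO minus Het and 1.71 (SE 0.68) for anti-IL34 minus anti-gp120 on the log2 scale. The latter became 2.69 on leaving out anti-gp120 animal 15, 2.63 on leaving out anti-IL34 animal 11 and 1.05 on leaving out anti-gp120 animal 1, so its size rests on single isolates. In forebrain the differences were 0.16 (SE 0.09, edgeR adjusted p = 0.718) and 0.02 (SE 0.11, adjusted p = 0.999).

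Ankrd34b encodes a cytoplasmic protein with ankyrin repeats, the folds by which many proteins bind others. It followed Gpr12 in being a forebrain transcript that was almost lost on isolation. Het forebrain held 25.5, 27.1, 24.9 and 25.9 CPM and Het isolates of the same animals 1.09, 0.841, 0.653 and 1.04. KO forebrain held 28.5, 25.2 and 24.4 CPM and KO isolates 1.99, 2.12 and 1.99. Each KO isolate was above each Het isolate, while the forebrain values were interleaved. Anti-gp120 forebrain held 21.4, 22.2, 19.0 and 22.8 CPM and the isolates 0.475, 1.04, 0.933 and 2.20, the last in animal 15. Anti-IL34 forebrain held 20.6, 27.5, 26.5 and 26.3 CPM and the isolates 1.26, 2.69, 1.42 and 1.82. In these isolates the arms overlapped through animal 15, and in forebrain they overlapped through anti-IL34 animal 2. The fitted isolate differences were 1.14 (SE 0.27) for the deletion and 0.83 (SE 0.53) for the antibody, and the latter ranged from 0.32 without anti-gp120 animal 1 to 1.49 without anti-IL34 animal 11. In forebrain the antibody difference of 0.28 (SE 0.09) did not pass (edgeR adjusted p = 0.580). Its unadjusted value of 0.0124 was the only one under 0.05 among the 16 KO minus Het and anti-IL34 minus anti-gp120 forebrain differences. The deletion difference was 0.05 (SE 0.06, edgeR adjusted p = 0.897).

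Slc4a10 encodes a sodium-dependent bicarbonate transporter of neurons and of the choroid plexus epithelium, which makes cerebrospinal fluid. Its forebrain level overlapped between all arms, with 332, 308, 344 and 343 CPM in Het, 318, 339 and 343 in KO, 334, 320, 309 and 345 in anti-gp120 and 308, 348, 368 and 334 in anti-IL34 animals. Isolates gave 59.4, 152, 98.2 and 51.0 CPM in Het animals 1, 20, 21 and 23, and 103, 129 and 49.1 in KO animals 3, 6 and 24. These arms were interleaved, with a fitted difference of 0.03 (SE 0.46). In the antibody experiment anti-gp120 isolates gave 22.3, 17.3, 13.3 and 11.9 CPM in animals 1, 7, 8 and 15, and anti-IL34 isolates 65.3, 73.1, 42.0 and 34.8 in animals 2, 10, 11 and 24. All anti-IL34 isolates were above all anti-gp120 isolates, and the fitted difference was 1.63 (SE 0.23), a 3.08-fold change. It remained between 1.52 and 1.77 over the 13 alternatives tried. In forebrain the differences were 0.05 (SE 0.05, edgeR adjusted p = 0.885) and 0.11 (SE 0.06, adjusted p = 0.999).

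Choroid plexus and ependyma markers and Slc4a10 were both higher in Het than in anti-gp120 isolates. With each arm's mean taken out, Pearson's r of Slc4a10 with the marker sum was 0.30 on the log2 scale, beside 0.29 with the endothelial sum. The 10 choroid plexus and ependyma genes, with Ttr, the transthyretin made by choroid plexus, at the front by level, summed to 1750 to 4075 CPM in Het isolates and 1201 to 3436 in KO isolates. In anti-gp120 isolates they summed to 15.2 to 34.2 CPM, with Kcne2 at 0 in all 4, and in anti-IL34 isolates to 17.6, 2293, 611 and 78.0 in animals 2, 10, 11 and 24. Isolates of the genotype experiment were thus high for the markers and for Slc4a10, and anti-gp120 isolates low for both. Anti-IL34 animal 2 departed from this, with a marker sum within the anti-gp120 range and Slc4a10 at 65.3 CPM, above the highest anti-gp120 isolate at 22.3. In forebrain the same markers summed to 154 to 198 CPM in Het and 12.1 to 62.4 in anti-gp120 animals, while Slc4a10 did not differ between them by edgeR (log2 difference -0.02, SE 0.06, adjusted p = 0.959). Of the 8 choroid plexus genes tested, 8 were positive in anti-IL34 minus anti-gp120 isolates (median log2 2.55). For 1 of the 8 the anti-IL34 isolates lay above without overlap, against 4.88% of 17570 genes. In KO minus Het isolates 0 of 10 were positive (median -0.52). The part of choroid plexus RNA in the Slc4a10 difference was not tested.

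**Figure D2:**
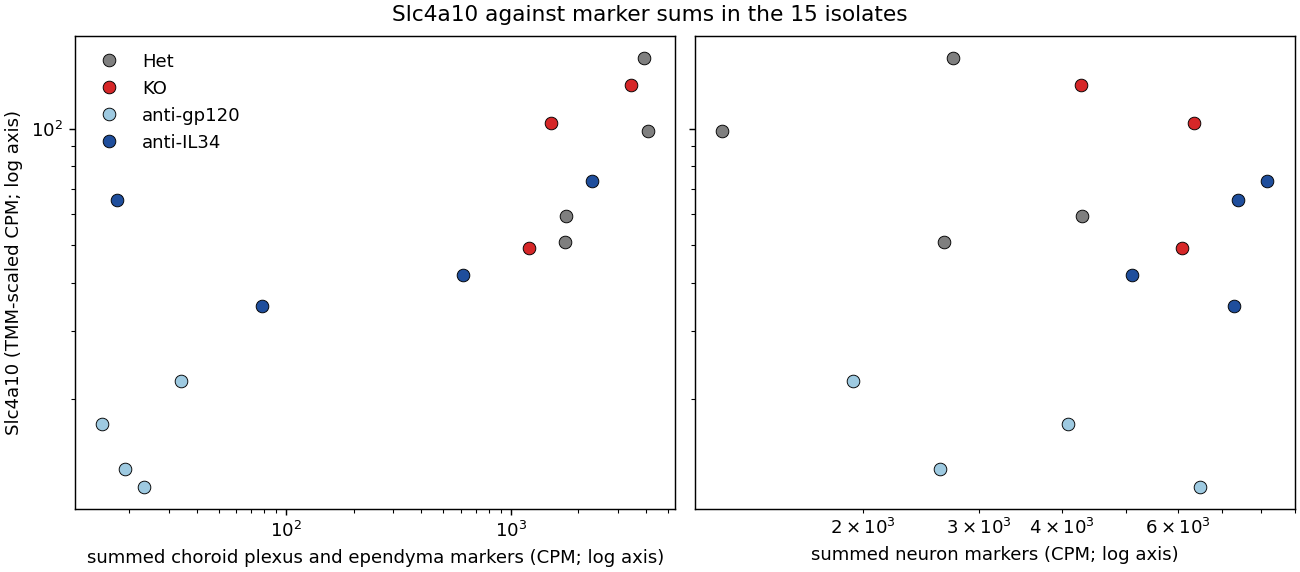
Slc4a10 level in the 15 CD11b isolates (y axis, TMM-scaled CPM, log scale) against the summed level of choroid plexus and ependyma markers (left) and neuron markers (right), both in CPM on log axes. Points are animals coloured by arm. Anti-gp120 isolates are lowest for Slc4a10 at 11.9 to 22.3 CPM, and anti-IL34 animal 2 is high for Slc4a10 at a choroid plexus sum of 17.6 CPM.

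Col11a1 encodes an alpha chain of type XI collagen, a fibrillar collagen that sets the thickness of collagen fibres. In forebrain it stood at 32.8, 33.3, 35.4 and 29.5 CPM in Het, 31.8, 33.9 and 31.0 in KO, 34.2, 26.9, 21.0 and 31.8 in anti-gp120 and 27.95, 28.1, 22.8 and 27.6 in anti-IL34 animals. In isolates it stood at 10.5, 9.55, 8.27 and 7.97 CPM in Het and 20.9, 21.1 and 13.9 in KO, with no overlap. Anti-gp120 isolates held 12.8, 5.29, 5.86 and 9.94 CPM and anti-IL34 isolates 15.2, 10.6, 7.72 and 9.79, and these arms overlapped. The fitted isolate differences were 1.05 (SE 0.19) for the deletion and 0.24 (SE 0.33) for the antibody, the latter falling to -0.07 without anti-gp120 animal 7 and rising to 0.56 without anti-gp120 animal 1. In forebrain they were 0.03 (SE 0.06, edgeR adjusted p = 0.948) and -0.12 (SE 0.12, adjusted p = 0.999). Fibroblasts and mural cells, which make fibrillar collagens, could also be in the isolates. Of their 11 markers, 11 had a positive KO minus Het difference (median 0.43) and 9 a positive antibody difference (median 0.20). KO isolates lay above Het isolates without overlap for 0 of the 11, against 20.7% of all genes. By edgeR 0 were called in either comparison, where 0.143% and 0.0228% of all genes were called higher. In control animals edgeR called 9 of the 11 higher in isolates than in forebrain and 1 lower. Of all genes 40.8% were called higher there and 43.3% lower. Col11a1 was among those called lower (log2 difference -1.82, SE 0.16). The part of fibroblasts and mural cells in the Col11a1 difference was not tested.

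Frmd5 encodes a FERM domain protein of cell adhesions. Its forebrain levels were 106, 108, 107 and 114 CPM in Het, 104, 110 and 95.9 in KO, 104, 119, 125 and 102 in anti-gp120 and 95.3, 127, 111.5 and 99.96 in anti-IL34 animals. Its isolate levels were 30.5, 38.8, 27.8 and 35.4 CPM in Het and 45.1, 54.5 and 56.4 in KO, again with no overlap. Under anti-gp120 they were 22.3, 31.2, 39.7 and 23.4 CPM and under anti-IL34 27.9, 37.2, 41.1 and 36.5, with wide overlap. The fitted isolate differences were 0.59 (SE 0.11) and 0.37 (SE 0.20), and the forebrain differences -0.04 (SE 0.04, edgeR adjusted p = 0.885) and -0.00 (SE 0.09, adjusted p = 0.999).

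Arpin and Rnd3 both act on the actin cytoskeleton. Arpin encodes an inhibitor of the Arp2/3 complex, which branches actin filaments, and Rnd3 an atypical small GTPase that loosens actin stress fibres. Arpin stood at 11.2 to 11.4 CPM in the 4 Het forebrains, 11.4 to 11.97 in KO, 9.18 to 11.4 in anti-gp120 and 9.06 to 11.5 in anti-IL34 forebrains. In isolates it stood at 8.24, 7.99, 5.98 and 7.39 CPM in Het and 13.4, 14.8 and 13.5 in KO. Anti-gp120 isolates held 6.01, 6.66, 6.13 and 10.6 CPM, the last again animal 15, and anti-IL34 isolates 10.6, 10.6, 9.38 and 11.9. All KO isolates were above all Het isolates and all KO forebrains, while the antibody arms overlapped through animal 15. Fitted isolate differences were 0.89 (SE 0.16) and 0.58 (SE 0.23), against 0.09 (SE 0.07, edgeR adjusted p = 0.830) and 0.03 (SE 0.10, adjusted p = 0.999) in forebrain.

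Rnd3 stood at 23.8 to 25.8 CPM in Het, 23.1 to 26.7 in KO, 21.5 to 28.9 in anti-gp120 and 19.7 to 29.2 in anti-IL34 forebrain. Its isolate levels were 20.8, 18.9, 17.1 and 22.2 CPM in Het, 29.8, 33.8 and 33.2 in KO, 19.8, 15.3, 14.9 and 19.2 in anti-gp120 and 27.8, 26.6, 21.2 and 23.9 in anti-IL34 animals. KO isolates lay above Het isolates, and anti-IL34 above anti-gp120 isolates, with no overlap. The fitted isolate differences were 0.67 (SE 0.13) and 0.49 (SE 0.15), and the forebrain differences 0.06 (SE 0.05, edgeR adjusted p = 0.838) and 0.10 (SE 0.14, adjusted p = 0.999).

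Ldlrad3 encodes a membrane protein with LDL-receptor class A repeats that regulates ubiquitin ligases of the Nedd4 family and is the entry receptor of Venezuelan equine encephalitis virus. It was the only one of the 8 whose isolate mean was above its forebrain mean in every arm. Forebrain held 20.9 to 24.3 CPM in Het, 18.9 to 23.2 in KO, 22.2 to 23.8 in anti-gp120 and 21.2 to 26.9 in anti-IL34 animals. Isolates held 26.5, 29.7, 23.2 and 26.4 CPM in Het, 41.8, 44.5 and 41.0 in KO, 21.4, 29.0, 24.8 and 28.5 in anti-gp120 and 30.5, 33.8, 37.1 and 31.5 in anti-IL34 animals. Neither KO nor anti-IL34 isolates overlapped with their controls, and KO isolates did not overlap with anti-IL34 isolates. The fitted isolate differences were 0.66 (SE 0.12) and 0.40 (SE 0.13), and the forebrain differences -0.04 (SE 0.07, edgeR adjusted p = 0.937) and 0.08 (SE 0.08, adjusted p = 0.999).

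Across the 8 genes, 7 had KO isolates all above Het isolates, where 20.7% of 18185 genes had, and 3 (Ldlrad3, Rnd3 and Slc4a10) had anti-IL34 isolates all above anti-gp120 isolates, where 4.88% of 17570 genes had. By edgeR, 0.143% and 0.0228% of genes were called higher in these isolate comparisons. The genes were chosen on these contrasts, so their counts are a description and nothing is read from them. All 16 isolate differences were positive, and the values nearest to 0 were those of Slc4a10 for the deletion and Col11a1 for the antibody, each chosen for the other experiment.

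**Figure D3:**
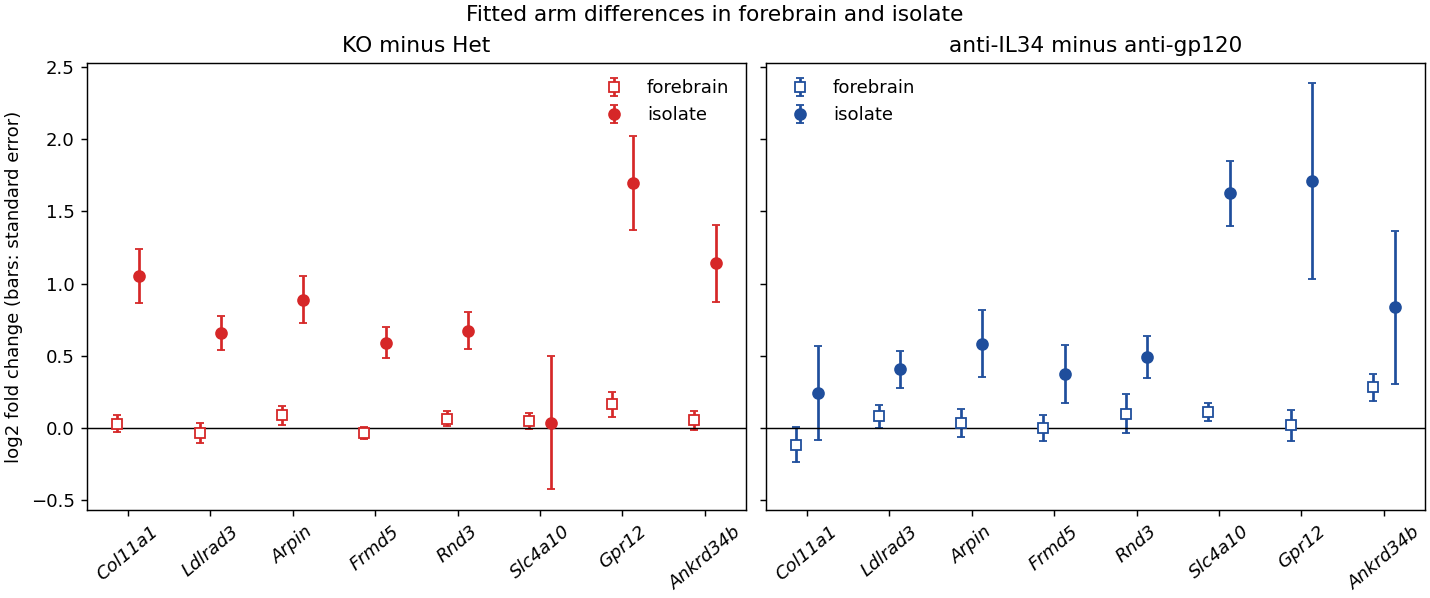
Fitted log2 fold changes of the 8 genes for KO minus Het (left) and anti-IL34 minus anti-gp120 (right). Open squares are forebrain, filled circles are isolates and bars are standard errors. Forebrain values lie between -0.12 and 0.28 while isolate values reach 1.71, and isolate differences chose the genes.

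The control animals show how the 8 genes compare with cell-type markers when forebrain is turned into an isolate. In the 8 Het and anti-gp120 animals, 7 of the 8 genes were lower in isolates by edgeR, where 43.3% of 18752 genes were. These control isolates also entered the contrasts that chose the genes, where low control values favoured selection, so this comparison is only partly independent. The log2 difference, isolate minus forebrain, was -5.28 (SE 0.25, adjusted p = 7.62e-12 by edgeR) for Gpr12 and -4.56 (SE 0.22, adjusted p = 1.33e-11) for Ankrd34b. Slc4a10 followed at -3.13 (SE 0.42, edgeR adjusted p = 2.94e-06), Frmd5 at -1.88 (SE 0.11, adjusted p = 1.02e-10) and Col11a1 at -1.82 (SE 0.16, adjusted p = 2.02e-08). Arpin at -0.60 (SE 0.12, edgeR adjusted p = 0.000183) and Rnd3 at -0.47 (SE 0.09, adjusted p = 0.000263) fell less. Ldlrad3, at 0.15 (SE 0.07), did not pass the test (edgeR adjusted p = 0.0678), and it passed with RLE scaling (adjusted p = 0.0248), with DESeq2 (adjusted p = 0.0153) and on leaving out any of 4 animals (Het 21, Het 23, anti-gp120 1 or anti-gp120 15, adjusted p between 0.00723 and 0.0405).

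Neuron markers spread over the same range as the more depleted genes. All 37 tested neuron markers were lower in control isolates, from -7.30 to -0.65 with a median of -3.40, among them Vip, a peptide of interneurons, at -6.60. Gpr12 was lower than 33 of the 37 and Ankrd34b than 29, while Slc4a10 was lower than 15 and Frmd5 and Col11a1 than 7 each. Arpin, Rnd3 and Ldlrad3 were less depleted than every neuron marker measured. Tubb3, a neuronal tubulin on the list, had 0 counts in all 30 libraries and was not tested.

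Glial markers sat higher. The 12 astrocyte markers ranged from 0.00 to 0.95 (median 0.56, 7 called higher and 0 lower), and the 22 oligodendrocyte lineage markers from -1.38 to 1.496 (median 0.06, 3 called higher and 2 lower), against 40.8% of all genes called higher and 43.3% lower. Ldlrad3 lay within the range of both glial lists, and Arpin and Rnd3 lay within that of the oligodendrocyte lineage and below every astrocyte marker. Col11a1, Frmd5, Slc4a10, Gpr12 and Ankrd34b lay below every marker of both glial lists. The 10 endothelial markers (0.81 to 2.66) and the 13 microglia markers (4.10 to 6.17) all lay above every one of the 8 genes. None of the 8 was therefore enriched by the isolation to the degree of any microglia marker on the list.

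The ratio of isolate to forebrain level in the same animal gives this per arm. On average Gpr12, Ankrd34b and Slc4a10 had the 3 lowest ratios and Ldlrad3 the highest in each of the 4 arms, with the order within the low group, of Col11a1 and Frmd5, and of Arpin and Rnd3 differing between arms. Gpr12 isolates held 2.57% ± 0.687 (SD, n = 4) of the forebrain level in Het, 7.48% ± 1.98 (n = 3) in KO, 2.63% ± 2.53 (n = 4) in anti-gp120 and 9.29% ± 3.20 (n = 4) in anti-IL34 animals. Ankrd34b held 3.50% ± 0.773, 7.85% ± 0.770, 5.37% ± 3.10 and 7.05% ± 1.93 in the same order of arms. Slc4a10 held 27.7% ± 15.6, 28.3% ± 12.4, 4.95% ± 1.41 and 16.02% ± 5.89. The Slc4a10 ratios of the 2 control arms did not overlap (14.9 to 49.4% in Het and 3.44 to 6.69% in anti-gp120), so its pooled depletion joins unlike experiments. Col11a1 held 27.8% ± 3.67, 57.7% ± 11.3, 29.1% ± 7.42 and 40.3% ± 9.54, and Frmd5 30.5% ± 4.25, 50.5% ± 7.79, 25.7% ± 4.59 and 33.0% ± 4.24. Arpin held 65.2% ± 8.54, 119% ± 5.03, 72.3% ± 26.5 and 101% ± 13.1, and Rnd3 79.8% ± 9.50, 130% ± 12.8, 69.0% ± 2.02 and 97.0% ± 17.6. Ldlrad3 held 117% ± 19.6, 199% ± 15.1, 113% ± 18.5 and 140% ± 17.0. In KO animals the last 3 genes were thus at a higher CPM in the isolate than in the forebrain next to it.

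Summed neuron markers gave 17.6% ± 7.86 in Het, 36.5% ± 7.53 in KO, 24.8% ± 14.4 in anti-gp120 and 46.2% ± 8.38 in anti-IL34 animals. This sum leans on Camk2a, a kinase of excitatory neurons, which held 1235 CPM on average in Het isolates and 2517 in KO isolates. The median ratio over single neuron genes was 8.93%, 19.0%, 11.3% and 19.1% in the same order. Astrocyte sums gave 101% ± 43.5, 225% ± 20.3, 140% ± 97.1 and 247% ± 60.9, and oligodendrocyte lineage sums 120% ± 63.6, 288% ± 137, 125% ± 54.3 and 228% ± 39.1. By either measure neuron ratios were higher on average in KO and anti-IL34 animals than in their controls, as were the sums of astrocyte and oligodendrocyte lineage markers.

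**Figure D4:**
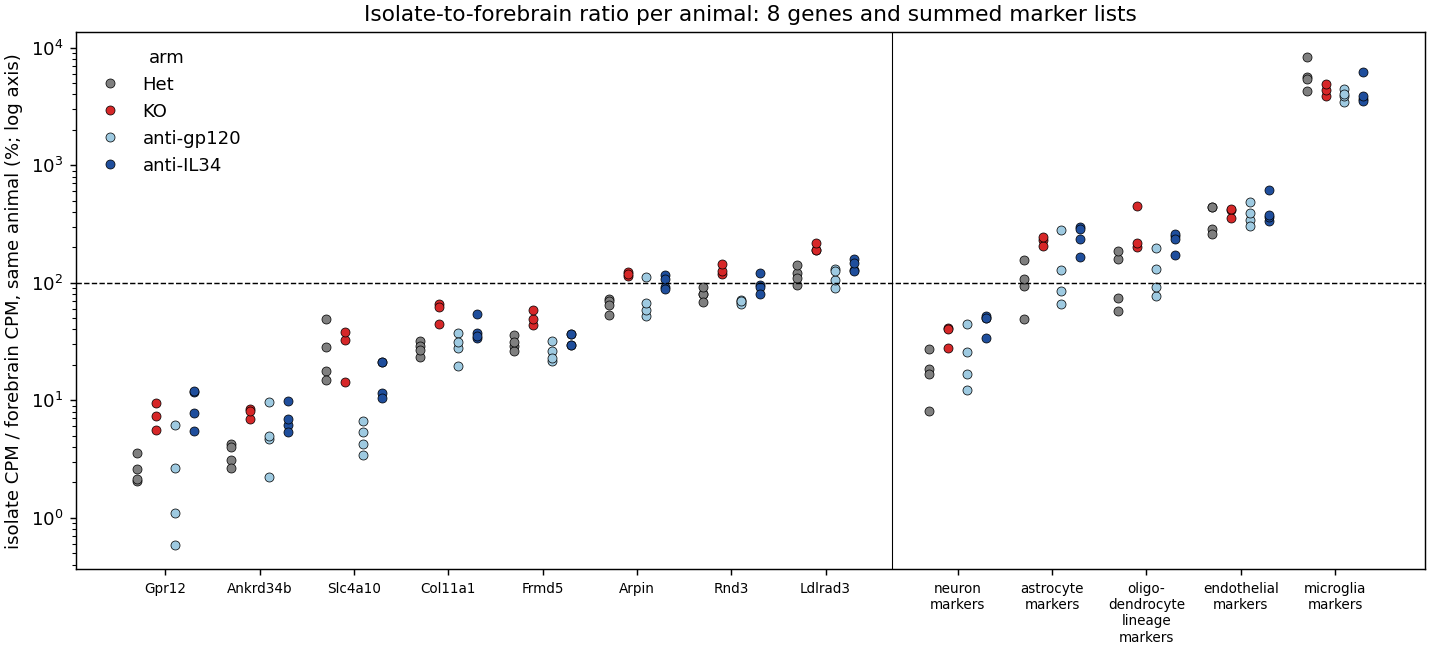
Isolate CPM as a percentage of forebrain CPM in the same animal (y axis, log scale; dashed line at equal levels) for the 8 genes (left) and for summed marker lists (right). Points are the 15 animals, coloured by arm. Gpr12 and Ankrd34b have arm means of 2.57 to 9.29%, below the neuron sum at 17.6 to 46.2%, and Ldlrad3 has means of 113 to 199%.

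If each isolate held forebrain RNA in the proportion of its summed neuron markers, the forebrain level times that ratio would give a level for each gene to set beside the one measured. For Gpr12 this product was 394 to 2874% of the measured isolate level over the 15 animals (median 667%), and for Ankrd34b 307 to 809% (median 543%). For Frmd5 it was 31.0 to 195% (median 91.5%), for Col11a1 32.3 to 143% (median 84.6%) and for Slc4a10 28.2 to 1303% (median 234%). For Arpin it was 15.1 to 56.4% (median 36.2%), for Rnd3 11.9 to 64.1% (median 33.8%) and for Ldlrad3 8.45 to 41.2% (median 19.6%). The neuron product thus exceeded the measured level of Gpr12 and Ankrd34b in every animal and fell short of that of Arpin, Rnd3 and Ldlrad3 in every animal. With the median ratio over neuron genes in place of the sum, those medians became 299% for Gpr12, 244% for Ankrd34b, 98.7% for Slc4a10, 38.7% for Col11a1, 37.6% for Frmd5, 16.9% for Arpin, 15.4% for Rnd3 and 8.26% for Ldlrad3. By this measure the neuron product for Gpr12 and Ankrd34b again exceeded, and that for Arpin, Rnd3 and Ldlrad3 again fell short of, the measured level in all 15 animals, and Col11a1 (at most 65.9%) and Frmd5 (at most 89.8%) now fell short in all 15. The same product with astrocyte sums gave, as arm medians in the order Het, KO, anti-gp120 and anti-IL34, 149%, 202%, 173% and 256% of the measured isolate level for Arpin. For Rnd3 they were 117%, 170%, 154% and 248%, and for Ldlrad3 81.3%, 112%, 89.6% and 191%. With oligodendrocyte lineage sums the arm medians were 164 to 217% for Arpin, 146 to 237% for Rnd3 and 94.2 to 177% for Ldlrad3. Over single animals the astrocyte product ran from 92.7 to 270.2% for Arpin, from 72.8 to 400.02% for Rnd3 and from 51.8 to 235% for Ldlrad3, so its lowest value was below the measured level for each of the 3. For the other 5 genes the arm medians of the astrocyte product were above the measured level, at 348 to 589% for Col11a1, 302 to 796% for Frmd5, 455 to 2179% for Slc4a10, 2765 to 5368% for Gpr12 and 2818 to 3626% for Ankrd34b. Endothelial sums gave arm medians above the measured level for all 8 genes, the lowest of them for Ldlrad3 at 194 to 338%. A product of this kind takes the cells left in an isolate to be the forebrain mix. The marker sums did not keep that mix. In Het animals the isolate held on average 17.6% of the forebrain sum for neurons, 101% for astrocytes and 356% for endothelial cells. The products are therefore a description only, and the source of each gene's RNA was not tested.

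Differences of neuron, astrocyte and oligodendrocyte lineage markers between isolate arms were nearly all positive, and edgeR called 0 of them in either experiment. In KO minus Het isolates, 35 of 36 neuron markers had a positive difference (median 1.01), 12 of 12 astrocyte markers (median 0.94) and 22 of 22 oligodendrocyte lineage markers (median 0.90), against a median of 0.02 over all genes. KO isolates lay above Het isolates without overlap for 19, 11 and 9 of them, against the 20.7% of all genes given above. Within the oligodendrocyte lineage this held for 9 of the 10 precursor markers and 0 of the 12 oligodendrocyte markers. Summed levels ran from 1223 to 4293 CPM in Het and 4271 to 6345 in KO isolates for neurons, and from 3611 to 12612 in Het and 14869 to 17230 in KO for astrocytes. The oligodendrocyte lineage sum ran from 3759 to 12348 CPM in Het and from 10250 to 22210 in KO isolates. In anti-IL34 minus anti-gp120 isolates, 36 of 37 neuron markers were positive (median 0.92), and the medians of astrocyte and oligodendrocyte lineage markers were 0.68 and 0.66, against 0.06 over all genes. Anti-IL34 isolates lay above anti-gp120 isolates without overlap for 4 of 37 neuron, 0 of 12 astrocyte and 1 of 22 oligodendrocyte lineage markers, against 4.88% of all genes. That neuron median became 0.52 without anti-gp120 animal 1 and 1.37 without anti-IL34 animal 11. Neuron sums there ran from 1935 to 6463 CPM in anti-gp120 and 5100 to 8186 in anti-IL34 isolates, and astrocyte sums from 5466 to 19936 and 11618 to 20854. Anti-gp120 animal 15 had the highest neuron and astrocyte sum of its arm, and it was also the highest of its arm for Arpin, Gpr12 and Ankrd34b. It was the lowest of its arm for Slc4a10 and lay between the others for the remaining 4 genes. Over the 15 isolates, with each arm's mean taken out, Pearson's r of log2 CPM with the neuron sum was 0.81 for Arpin and 0.78 for Gpr12 and Ankrd34b, but 0.53 for Ldlrad3, 0.34 for Rnd3, 0.07 for Col11a1, -0.04 for Frmd5 and -0.32 for Slc4a10. With the astrocyte sum it was 0.89 for Arpin, 0.82 for Gpr12, 0.79 for Ankrd34b, 0.48 for Ldlrad3, 0.43 for Rnd3, 0.14 for Col11a1, -0.11 for Frmd5 and -0.37 for Slc4a10. With the oligodendrocyte lineage sum it was 0.57 to 0.66 for Arpin, Gpr12, Ankrd34b and Rnd3 and between -0.56 (Slc4a10) and 0.22 (Ldlrad3) for the other 4. With the endothelial sum it was -0.83 for Rnd3, -0.64 for Gpr12, -0.62 for Arpin, -0.49 for Ankrd34b and -0.48 for Col11a1. It was 0.09 for Ldlrad3, 0.29 for Slc4a10 and 0.49 for Frmd5 with that sum. These are descriptions over libraries that share depth and cell content.

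Microglia markers went the other way. All 13 were called lower in KO isolates and 7 of 13 in anti-IL34 isolates (medians -1.60 and -1.16), where 5.22% of 18185 and 0.603% of 17570 genes were. KO isolates lay below Het isolates without overlap for 13 of 13 and anti-IL34 below anti-gp120 isolates for 11 of 13, against 19.1% and 10.1% of all genes. The calls depended on which animals entered the fit, since edgeR called 0 genes in KO minus Het isolates once Het 20, Het 23 or any KO animal was left out, and 0 in the antibody isolates once anti-gp120 7 or anti-IL34 10 was. The summed level of the markers ran from 12700 to 22503 CPM in Het, 4901 to 5667 in KO, 16231 to 22874 in anti-gp120 and 7296 to 11509 in anti-IL34 isolates. CPM values are shares of a library. Over the 15 isolates with arm means taken out, r with the microglia sum was -0.70 for Ankrd34b, -0.69 for Arpin and -0.64 for Gpr12, -0.39 for Ldlrad3 and Rnd3, and -0.12, -0.06 and 0.14 for Col11a1, Frmd5 and Slc4a10. The part of the microglia levels in the result was not tested. Endothelial markers had medians of 0.06 and 0.13, with 0 of 10 called in either comparison.

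**Figure D5:**
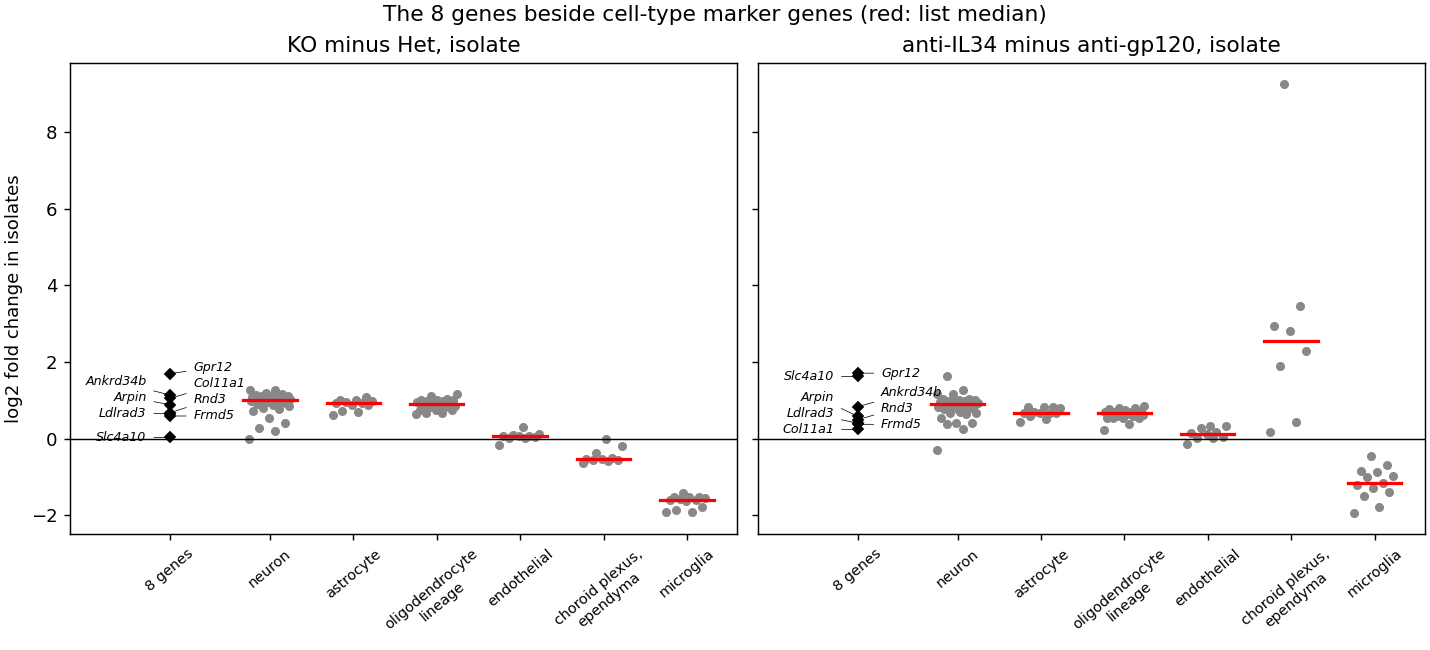
Fitted log2 fold changes in isolates for the 8 genes (black diamonds) and for single marker genes of 6 cell types (grey points, with red lines at the list median), for KO minus Het (left) and anti-IL34 minus anti-gp120 (right). In KO isolates the neuron, astrocyte and oligodendrocyte medians are 1.01, 0.94 and 0.90, and 6 of the 8 genes lie between 0.59 and 1.14.

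Set beside these lists, the isolate differences of 7 of the 8 genes for the deletion and 6 of 8 for the antibody lay within the range of the neuron markers, and 4 and 2 of 8 within that of the astrocyte markers. The neuron ranges were wide, -0.01 to 1.26 and -0.29 to 1.62, and Slc4a10 lay within the first at 0.03. The share of all genes within them was not counted, so these counts do not show likeness to neurons. For the deletion, Ankrd34b was above 31 of 36 neuron markers, Col11a1 above 25 and Arpin above 10, whereas Ldlrad3, Rnd3 and Frmd5 were each above 5. Gpr12 was above all 36, all 12 astrocyte and all 22 oligodendrocyte lineage markers, and Slc4a10 was exceeded by 35 of the 36 neuron markers. For the antibody, Gpr12 and Slc4a10 were above all 37 neuron, 12 astrocyte and 22 oligodendrocyte lineage markers. Col11a1 was exceeded by 36 of 37 neuron markers, Frmd5 by 35, Ldlrad3 by 34, Rnd3 by 32, Arpin by 31 and Ankrd34b by 23. No test of these positions was made, because the genes were chosen on the same values.

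In the forebrain itself the marker lists behaved otherwise. Of 37 neuron markers 0 were called in either experiment (median log2 differences 0.01 for the deletion and 0.00 for the antibody), as for the 8 genes. The 12 astrocyte markers had 0 called in KO forebrain (median -0.08) and 1 called lower in anti-IL34 forebrain (median -0.14). Of the 22 oligodendrocyte lineage markers 7 fell in KO forebrain (median -0.26), where 0.615% of all genes did, and 0 were called in anti-IL34 forebrain. The 7 were all among the 12 oligodendrocyte markers (median -0.32), and 0 of the 10 precursor markers were called (median -0.12). Microglia markers fell, with 11 of 13 called lower in KO and 12 of 13 in anti-IL34 forebrain, where 0.615% and 0.525% of all genes were, P2ry12, a purine receptor of resting microglia, by 1.85 and 2.18 on the log2 scale (SE 0.08 and 0.07, edgeR adjusted p = 2.74e-07 and 6.46e-08). The intervals of the 8 genes given above reach no lower than -0.19 and -0.39 in these comparisons.

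The forebrain controls of the 2 experiments and the sizes of the 2 forebrain effects were compared directly. None of the 8 genes differed between Het and anti-gp120 forebrain by edgeR, where 0.817% of 19209 genes did. Ankrd34b came nearest, with 0.24 (SE 0.07, higher in Het, edgeR adjusted p = 0.155), and without anti-gp120 animal 15 it passed at 0.28 (adjusted p = 0.0492). Genotype, treatment and experiment cannot be told apart in that comparison, in which 12 of 13 microglia markers were lower and 5 of 10 choroid plexus markers higher in Het forebrain. The deletion effect did not differ from the antibody effect for any of the 8 in forebrain by edgeR (0.0101% of 19724 genes did), and the Ankrd34b difference of -0.23 had a 95% interval from -0.48 to 0.01. The intervals of the other 7 lay within -0.38 and 0.45, so differences within those bounds could not be resolved with these animals.

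The relatives of 7 of the 8 genes, in lists drawn from their families, give the setting in the same libraries. Of 10 other fibrillar collagen genes 9 were positive in KO isolates (median 0.45, 1 called lower and 0 higher), and in forebrain 0 were called in either experiment. On isolation 6 of the 10 were called higher in control isolates, against 40.8% of all genes, Col27a1 by 4.39 (SE 0.12, edgeR adjusted p = 2.27e-14), and 2 lower, Col24a1 among them at -5.39 (SE 0.18, adjusted p = 1.72e-13). Of 21 genes of the Arp2/3 complex, which Arpin inhibits, and its activators, 4 were called lower and 0 higher in KO isolates (median -0.40), where 5.22% of genes were called lower. KO isolates lay below Het isolates without overlap for 10 of the 21 and above them for 5, against 19.1% and 20.7% of all genes. In anti-IL34 minus anti-gp120 isolates 0 of the 21 were called and 6 were positive (median -0.23). In forebrain 1 of the 21 was called lower in each experiment, Nckap1l, the blood-cell member of the WAVE regulatory complex, with -0.92 (SE 0.11, edgeR adjusted p = 0.00105) for the deletion and -1.18 (SE 0.14, adjusted p = 0.00359) for the antibody.

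Both other Gpr3 group receptors were called lower in control isolates than in forebrain, where 43.3% of all genes were, Gpr6 at -5.89 (SE 0.29, edgeR adjusted p = 1.53e-11), and so were both other ankyrin repeat 34 genes, Ankrd34c at -5.60 (SE 0.26, adjusted p = 6.78e-12) and Ankrd34a at -3.09 (SE 0.24, adjusted p = 3.69e-09). Between arms in isolates 1 of the 2 Gpr3 group receptors was tested, at 0.03 for the deletion and 0.27 for the antibody, and 0 were called. Neither Ankrd34a nor Ankrd34c was called in isolates between arms, with medians of the pair of 0.77 for the deletion and 0.99 for the antibody. Of the other Slc4 transporters 8 were tested between KO and Het isolates (4 positive, median 0.19) and 6 between the antibody arms (4 positive, median 0.63), and 0 were called in either. Of 11 FERM domain genes 1 was called lower in KO isolates and 0 in anti-IL34 isolates (medians 0.42 and 0.20). Of all genes 5.22% and 0.603% were called lower in these comparisons. Of 11 tested LDL receptor class A genes and Nedd4 ligases 1 was called lower in KO isolates and 0 in anti-IL34 isolates (medians 0.16 and 0.22). The same shares of all genes, 5.22% and 0.603%, stand beside these counts. On isolation 5 of 11 FERM genes were called higher and 5 lower, and 6 of 11 receptor and ligase genes higher and 5 lower, near the 40.8% and 43.3% of all genes.

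Each gene was also set beside the genes whose levels followed it most closely over the 15 isolates after the mean of each arm was taken out, among 15698 genes with a mean of at least 1 CPM. The measure was Pearson's r of log2 CPM, given as a description over libraries that share depth and cell content. Frmd5 was closest to Plat, the tissue plasminogen activator (r = 0.97), and Arpin to Add3, an adducin of the membrane skeleton (r = 0.97), Aph1b and Pla2g7 (both 0.96). Gpr12 was closest to Ficd (0.95), Akt2-ps (0.94) and Dhrs4 (0.93), with the few reads given above behind it, and Ankrd34b to Dcun1d4 (0.94), Cdkl2 (0.94) and Tunar (0.93). Slc4a10 was closest to Elmo3 and Kdelr3 (both 0.92) and Ubtf (0.90), and Col11a1 to Doc2g (0.90), Npy, a peptide of interneurons (0.88), and Frzb (0.87). Ldlrad3 was closest to Plod2 (0.88), Ghr, the growth hormone receptor (0.86), and Gucy1a2 (0.85), and Rnd3 to Sema3e, Aldh1l2 (both 0.83) and Edil3 (0.82). None of the 8 was among the 3 genes closest to another of the 8, and Npy was the only marker-list gene among these 24.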

How the data were processed

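RNA was measured in 30 libraries of 15 mice, made per the labels' protocols from TRIzol extracts with a SMART-Seq v4 low-input kit. The authors deposited whole-number read counts per gene, not normalized. The submitters' processing notes list STAR 2.7.5c, featureCounts 1.6.3, R 4.4.0 and GRCm38, and how each was used and whether strand was used are not given in the sources used here. The deposited Length column, another value per gene, equals the gene span with introns for 51183 of the 51498 genes that matched GENCODE M21. Animal numbers in the deposited sample sheet (another label value) matched the labels for 30 of 30 libraries. Of the count columns, 6 without a labelled sample were not used, nor was a table of TPM values.

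Tests used edgeR 4.0.16 in R 4.3.3 (quasi-likelihood, filterByExpr, TMM factors), with sex as a covariate (experiment and sex for isolate minus forebrain) and Benjamini-Hochberg adjustment at 0.05. Fold changes use the scaling of each fit, and printed CPM a scaling over all libraries. Standard errors are the log2 fold change over the square root of F, and the script was tested on simulated data. Nothing says whether animals shared a litter. The closest of 42 replicate pairs differed by a chi-square of 5.48 per degree of freedom, so none was treated as a repeat. Forebrain and isolate libraries with the same number come from the same animal, which pairs them: their deviations from group means correlated over genes with a median of 0.11 (0.0359 to 0.173), against -0.04 for different animals. The depth, 15064391 to 75158213 reads, leaves counting error large near 1 CPM, as for Gpr12 in isolates.

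All 8 genes were named in each comparison, with up to 4 genes of a list chosen by smallest p or highest mean level. The genes and all lists were chosen with earlier results of these data known. Pandas 2.3.3 in Python 3.11.15 read the annotation and promoters. Alternatives were RLE scaling, no expression filter, DESeq2 1.42.0, no sex term, all 15 libraries of a tissue in 1 fit, the animal as a block, each animal left out and a median over genes in place of summed markers.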

Additional observations from a re-analysis of the deposited data

Results flagged for a closer look

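Among 48 groups of 4 libraries tested for a value far from the others, 3 were flagged, and chance flags about 1 in 20 such groups. Col11a1 in anti-IL34 forebrain was 22.8 CPM in animal 11, and the other 3 animals lay between 27.6 and 28.1. Arpin in anti-gp120 isolates was 10.6 CPM in animal 15, and the other 3 lay between 6.01 and 6.66. Ankrd34b in anti-IL34 forebrain was 20.6 CPM in animal 2, and the other 3 lay between 26.3 and 27.5.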

How the results depend on the processing

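Under every alternative run, 0 of the 8 genes were called between KO and Het forebrain, between anti-IL34 and anti-gp120 forebrain, or between the deletion and antibody effects. Isolate differences between arms have no test: those of Gpr12 for the antibody moved by more than the replicate spread in 2 alternatives, and on leaving out 1 animal those of Slc4a10 for the deletion (-0.24 to 0.58) and Col11a1 for the antibody (-0.066 to 0.56) changed sign. In isolate minus forebrain, RLE scaling and DESeq2 called 8 of 8 in place of 7, through Ldlrad3 (adjusted p = 0.0248 with edgeR after RLE scaling and 0.0153 with DESeq2), and leaving out 1 animal gave 7 to 8. In Het minus anti-gp120 forebrain, leaving out 1 animal gave 0 to 1 of 8. With the animal as a replicate block, which pairs forebrain and isolate, 15642 genes were called in place of 15775, and no gene of the 8 changed its call. The arms hold different animals, so no block could be fitted between them.

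Counts over all genes moved more. For KO minus Het forebrain 120 genes were called, 381 with no filter and 55 (KO animal 3) to 117 on leaving out 1 animal. For the antibody in forebrain 123 were called, 349 with no filter, 198 with DESeq2, 204 with 15 libraries in 1 fit and 25 (anti-IL34 animal 11) to 126 on leaving out 1 animal. For KO minus Het isolates 976 were called, 1993 with no filter, 3887 with DESeq2, 2189 without sex, 2734 with 15 libraries and 0 to 5756 on leaving out 1 animal, being 0 by edgeR without Het animal 20 or 23 or any KO animal, where 2268 to 4465 had an unadjusted p under 0.05, and 5756 without Het animal 1 or 3115 without Het animal 21. For the antibody in isolates 110 were called, 819 with no filter, 2015 with DESeq2, 983 without sex, 988 with 15 libraries and 0 to 6905 on leaving out 1 animal, with 0 when anti-gp120 animal 7 or anti-IL34 animal 10 was left out (2882 and 2701 at an unadjusted p under 0.05), 1 to 6 for each of 4 others (anti-gp120 1 and 8, anti-IL34 2 and 24), 514 for anti-IL34 animal 11 and 6905 when anti-gp120 animal 15 was. For Het minus anti-gp120 forebrain 157 were called, 919 with no filter, 425 with DESeq2 and 67 (Het animal 21) to 415 (anti-gp120 animal 15) on leaving out 1 animal, and for the deletion minus antibody effect 2, with 114, 28, 4 without sex, and 2 to 33. The cause was not tested.

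Forebrain differences near 0 changed sign, none past the threshold. On leaving out 1 animal, KO minus Het ran from -0.030 to 0.089 for Col11a1, -0.087 to 0.011 for Ldlrad3, -0.0057 to 0.11 for Slc4a10 and -0.059 to 0.10 for Ankrd34b. The antibody difference ran from -0.032 to 0.082 for Arpin, -0.065 to 0.046 for Frmd5 (0.0016 with RLE scaling, 0.0012 with DESeq2), -0.012 to 0.21 for Rnd3 and -0.073 to 0.074 for Gpr12. Het minus anti-gp120 ran from -0.15 to 0.030 for Rnd3 and -0.043 to 0.029 for Slc4a10, and deletion minus antibody from -0.091 to 0.033 for Frmd5 and -0.14 to 0.087 for Rnd3. With a median over genes in place of summed markers, the isolate to forebrain ratio of neurons was 8.93% in Het, 19.0% in KO and 19.1% in anti-IL34 animals, that of astrocytes 293% in KO and that of the oligodendrocyte lineage 166% in anti-IL34 animals. Depth limits Gpr12 and Ankrd34b in isolates, where a level can rest on 1 to 109 reads.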
